A study of Homo sapiens with 68 samples.

Results

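The HOX cluster genes were followed on expression arrays of A673 cells, an Ewing sarcoma cell line that carries the EWS/FLI translocation, after treatment with ARA-C, doxorubicin or puromycin. The members were all probe sets annotated to 1 gene whose symbol is HOXA, HOXB, HOXC or HOXD plus a number. The rule found 34 probe sets of 25 genes, among 22215 probe sets tested and 11882 genes named on the array, and RefSeq (GRCh38.p14) lists 39 such genes. The HOXD cluster (chromosome 2, 176087487 to 176190907) had 13 probe sets of 8 genes, HOXC (chromosome 12, 53938831 to 54056030) 7 of 7, HOXB (chromosome 17, 48528526 to 48728750) 13 of 9, and HOXA (chromosome 7, 27092993 to 27200091) 1 of 1, which was HOXA2. ARA-C, a nucleoside analogue that blocks DNA synthesis, was given at 0.17 or 0.34 uM, doxorubicin, a topoisomerase II poison, at 59.88 or 119.76 nM, and puromycin, which ends translation early, at 0.09 or 0.18 uM. The lower dose of each was the study's EC50 and the higher one 2 times that dose. Cells were collected at 24 h, day 3 and day 5, with 3 arrays per dose and time, except doxorubicin 119.76 nM on day 5 with 2 and puromycin 0.18 uM on day 5 with 1. Vehicle cells received DMSO and were collected at the same times, with 6, 5 and 6 arrays. All groups are the same cell line without any other alteration, and the labels call the arrays biological replicates without saying whether cultures were separate, so the p-values measure only the spread between these arrays. Of the 68 arrays, puromycin 0.09 uM day 5 replicate 3 was left out for the reasons given below, which leaves 2 arrays in its group.

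HOX genes encode homeodomain transcription factors that give cells their position along the head-to-tail axis and along the limbs. The genes lie side by side in clusters on separate chromosomes, and their order along the chromosome follows the order in which they are active along the body, from the low-numbered anterior genes to the high-numbered posterior ones. HOX proteins bind DNA together with TALE cofactors of the PBX, MEIS and PKNOX families, while Polycomb and MLL complexes keep the clusters silent or active. Posterior HOXD genes such as HOXD11 and HOXD13 are known to be active in Ewing sarcoma, and HOXD13 stands on the study's own list of genes that EWS/FLI modulates.

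Every value is an MAS5 signal on a linear scale that the authors scaled to a similar mean on every array (1094 to 1103 over the 67 arrays used). The array left out differed from the others. Its median correlation with them was 0.602, against 0.960 over all pairs, and the summed signal of 9 blood markers was 86711 on it and at most 501 elsewhere. The summed signal of 7 Ewing sarcoma markers was 9729 on that array, against 21373 to 50537 on the other 67. Of these markers, FLI1 (3919) exceeded its range on the other arrays (570 to 3762) and PRKCB (2736) lay inside its own. The remaining Ewing sarcoma markers lay below their ranges. Of the blood markers, CD3D (40.2) and CD14 (22.9) lay inside their ranges and the rest above theirs. Plate positions split the arrays into rows A to F and rows G to H. All doxorubicin arrays and all but 1 puromycin array lay in rows A to F, ARA-C 0.17 uM lay in rows A to F, ARA-C 0.34 uM in rows G to H, and 8 and 9 vehicle arrays lay in rows A to F and G to H. The ratio of the 3′ to the 5′ signal of ACTB, which rises as RNA breaks down, was 7.35 to 33.7 on day 5 of ARA-C 0.17 uM, 4.38 to 7.63 on day 5 of doxorubicin 59.88 nM and 17.1 to 31.97 on day 5 of doxorubicin 119.76 nM, against 1.44 to 4.23 in day 5 vehicle cells. On day 3 it was 2.26 to 2.84 and 2.88 to 3.59 at the lower and higher ARA-C dose and 1.61 to 3.04 and 1.49 to 2.24 at those of doxorubicin, against 1.22 to 1.76 in vehicle cells. With puromycin on day 5 the ratio was 4.30 to 5.47 at 0.09 uM and 17.5 on the single array of 0.18 uM. At 24 h it was 2.61 to 3.98 at ARA-C 0.17 uM, 2.40 to 4.39 at doxorubicin 119.76 nM and 2.63 to 4.18 at puromycin 0.09 uM, against 1.42 to 2.14 in vehicle cells. Puromycin 0.18 uM had 2.07 to 8.98 at 24 h. The part of this ratio in the differences of any time was not tested. Only 0.221% of the probe sets of ARA-C 0.17 uM day 3 replicate 3 and 0.941% of those of ARA-C 0.34 uM 24 h replicate 2 were under a signal of 10, where the median array had 19.9%, so their dim signals are raised, and the single array of puromycin 0.18 uM on day 5 had 5.80%. With bulk RNA, fewer cells that express a gene and less RNA per cell cannot be told apart.

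In vehicle cells, 15 of the 34 HOX probe sets, of 13 genes, had a median signal above 100 over the 17 arrays. In the HOXD cluster these were HOXD13 (probe set 207397_s_at, median 278), HOXD11 (1112), HOXD10 (280.1), HOXD9 (205604_at, 1493) and HOXD4 (812). The HOXC cluster had HOXC13 (843), HOXC11 (110.5), HOXC10 (866), HOXC6 (1929) and HOXC4 (341). The HOXB cluster had HOXB7 with 3 probe sets (249 for 204778_x_at, 713 for 204779_s_at and 654 for 216973_s_at), HOXB6 (205366_s_at, 108) and HOXB2 (819). No HOXA gene passed, since HOXA2, the only one measured, had a median of 18.9. Just inside the threshold, HOXB6 was above 100 on 9 of 17 arrays and HOXC11 on 11, and just outside it lay HOXD3 (206601_s_at, 98.8, 8 arrays), the other HOXD13 probe set (207398_at, 83.9, 5 arrays) and HOXC8 (78.5, 3 arrays). Within the clusters, HOXD12, between HOXD13 and HOXD11, had a median of 2.39, and HOXB1, the most anterior HOXB gene, had one of 2.82. Signals of different probe sets cannot be ranked against each other, because each binds its target with its own strength. HOXC4, HOXC5 and HOXC6 share a start in RefSeq and HOXD3 and HOXD4 overlap, and probe sets ending in _s_at or _x_at may bind transcripts of related genes, so their signals are uncertain as to gene.

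**Figure D1:**
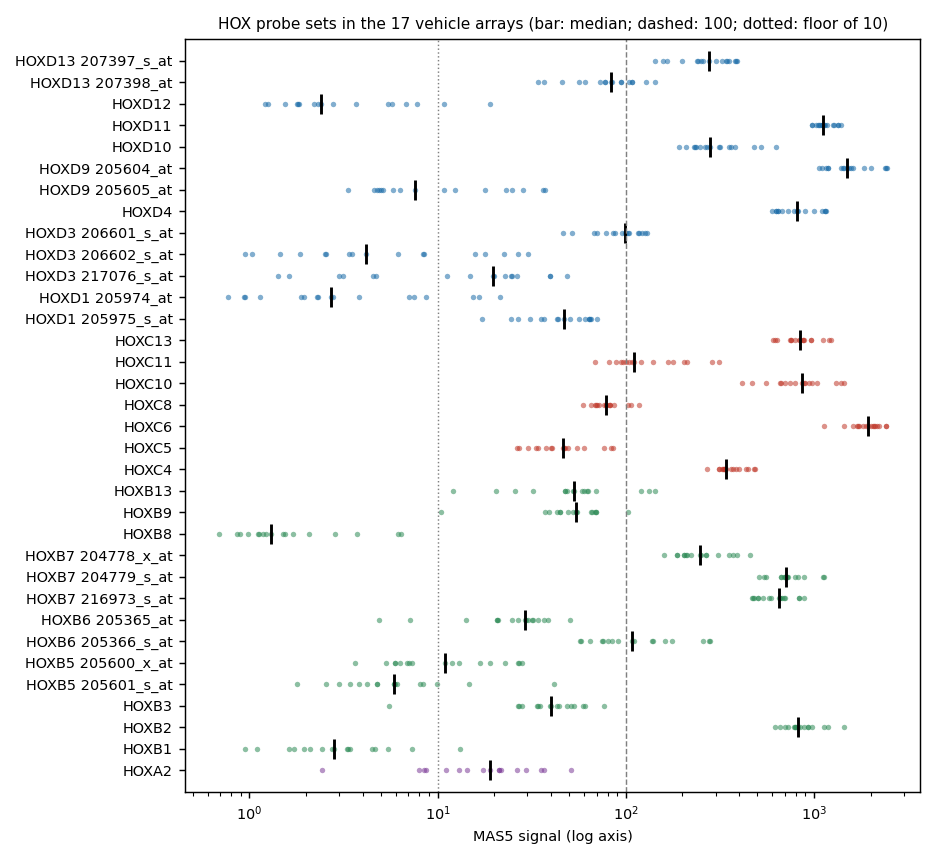
MAS5 signal (log axis) of the 34 HOX probe sets in the 17 vehicle arrays, ordered by cluster and position; points are arrays, the bar is the median, the dashed line is a signal of 100 and the dotted line the floor of 10. The 15 probe sets with a median above 100 belong to the HOXD, HOXC and HOXB clusters, and HOXA2 has a median of 18.9.

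The 4 posterior HOXD genes that stand in a row illustrate how neighbours differ, so their promoters are shown from RefSeq (GRCh38.p14), each from 250 bases before to 50 bases after the start and all on the plus strand of chromosome 2, at chr2:176092471-176092770 for HOXD13, chr2:176099545-176099844 for HOXD12, chr2:176107030-176107329 for HOXD11 and chr2:176116528-176116827 for HOXD10. RefSeq's span of the HOXD13 gene begins further upstream, at 176087487, so the start used for its window lies inside that span. Capitals mark CCAAT or TATAAA on either strand.
HOXD13: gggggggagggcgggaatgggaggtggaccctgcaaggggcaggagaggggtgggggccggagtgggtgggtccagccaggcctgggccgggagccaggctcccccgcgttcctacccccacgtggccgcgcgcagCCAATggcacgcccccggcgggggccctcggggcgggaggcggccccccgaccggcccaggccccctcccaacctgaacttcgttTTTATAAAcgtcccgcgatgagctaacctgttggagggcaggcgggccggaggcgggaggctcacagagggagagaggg
HOXD12: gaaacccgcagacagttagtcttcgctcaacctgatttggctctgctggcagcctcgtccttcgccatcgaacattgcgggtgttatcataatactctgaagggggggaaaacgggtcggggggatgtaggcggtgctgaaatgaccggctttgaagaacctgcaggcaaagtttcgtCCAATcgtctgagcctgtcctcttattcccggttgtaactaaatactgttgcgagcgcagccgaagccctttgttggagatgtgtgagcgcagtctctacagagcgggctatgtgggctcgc
HOXD11: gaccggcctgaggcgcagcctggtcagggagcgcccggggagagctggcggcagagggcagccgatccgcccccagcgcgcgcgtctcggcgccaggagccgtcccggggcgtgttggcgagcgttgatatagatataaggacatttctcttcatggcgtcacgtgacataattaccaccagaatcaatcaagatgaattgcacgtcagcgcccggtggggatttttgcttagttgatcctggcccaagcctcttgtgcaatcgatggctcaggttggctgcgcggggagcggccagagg
HOXD10: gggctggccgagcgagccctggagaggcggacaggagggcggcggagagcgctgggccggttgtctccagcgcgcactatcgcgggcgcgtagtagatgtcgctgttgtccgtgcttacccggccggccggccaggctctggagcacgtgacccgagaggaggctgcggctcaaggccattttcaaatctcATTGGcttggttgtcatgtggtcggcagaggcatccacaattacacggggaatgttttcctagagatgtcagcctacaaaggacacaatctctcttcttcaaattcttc
The HOXD13 window held TATAAA at 27 bases before the start on the plus strand, overlapping a match on the minus strand at 29 bases before it, and CCAAT at 114 bases before it. HOXD12 held CCAAT at 72 bases before the start and HOXD10 held it on the minus strand at 59 bases before it. HOXD11 held neither. Among the 35116 promoters of the same length, 11.5% held TATAAA and 34.6% held CCAAT, each on either strand, and of the 11 HOX genes with a promoter in the table, 1 (HOXD13) and 10 did. GGAAGGAA (TTCCTTCC), a repeat that EWS/FLI can bind, was found in 1 of the 11, HOXA2, and in 3.67% of all promoters. The 4 windows had 24, 19, 27 and 23 CpG dinucleotides in the order printed, where the median promoter had 14.

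Each treated group was compared with vehicle cells of the same time in a limma fit on log2 signal with a floor of 10. A probe set rose or fell in the text only where its Benjamini-Hochberg adjusted p over all 22215 probe sets was under 0.05. All treated groups of a time share the same vehicle arrays. HOX probe sets fell most often on day 5 of ARA-C and on days 3 and 5 of doxorubicin. At ARA-C 0.17 uM, 1 of the 34 HOX probe sets rose and 4 fell at 24 h, where 5.46% of all probe sets rose and 8.94% fell. On day 3, 3 rose and 2 fell (all probe sets, 14.7% and 8.0%), and all 3 rises, of the dim HOXB1, HOXB5 (205601_s_at) and HOXB6 (205365_at), were lost without replicate 3, the array with raised dim signals (adjusted p = 0.683, 0.403 and 0.449). On day 5, 2 rose and 16 fell, which is 47.1% falling, where 9.57% of all probe sets rose and 38.0% fell, so the HOX share lay near that of the array. At ARA-C 0.34 uM, none was called at 24 h by limma (7 of 34 had an unadjusted p under 0.05, and 6.82% of all probe sets rose and 2.35% fell). On day 3, 1 rose and 4 fell at this dose (10.0% and 8.10%), and on day 5 none rose and 9 fell (11.5% and 13.6%). Against vehicle arrays of the same plate rows, 17 fell on day 5 of 0.34 uM and 14 on day 5 of 0.17 uM. No share of all probe sets is given for that fit, so these counts cannot be set against the array.

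At doxorubicin 59.88 nM, limma called none at 24 h (7 with an unadjusted p under 0.05, with 2.61% of all probe sets rising and 2.78% falling). On day 3, 1 HOX probe set rose and 10 fell, which is 29.4% falling, where 9.07% of all probe sets rose and 11.2% fell. On day 5 none rose and 15 fell, 44.1% of the members (11.5% and 29.1% of all probe sets). At doxorubicin 119.76 nM, 4 rose and 3 fell at 24 h (6.72% and 7.77%), 4 rose and 9 fell on day 3 (11.6% and 11.2%), and 6 rose and 14 fell on day 5 (15.2% and 38.0%). Puromycin moved few members, and few of all probe sets. At most 11.8% of the members fell in any puromycin group tested, against at most 12.1% of all probe sets. At 0.09 uM, 1 rose and 4 fell at 24 h (2.13% and 8.36%), limma called none on day 3 (7 had an unadjusted p under 0.05, and 0.707% and 2.50% of all probe sets were called), and 2 fell on day 5 (5.51% and 12.1%). At 0.18 uM, 1 fell at 24 h (3.42% and 4.32%) and 3 fell on day 3 (4.41% and 7.19%).

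Among the 15 probe sets above 100, the calls were counted by cluster. The 5 of HOXB are of 3 genes, since 3 of them measure HOXB7, while the 5 of HOXC and the 5 of HOXD are 5 genes each. On day 3 of doxorubicin 59.88 nM, all 5 HOXB probe sets above 100 fell, along with 4 of 5 in HOXD and 1 of 5 in HOXC, which was HOXC4. At 119.76 nM on day 3, the 5 HOXB probe sets and 3 HOXD ones fell, and 3 HOXC ones (HOXC13, HOXC10 and HOXC6) rose, where 13.7% of all probe sets above 100 rose. Of the 5 HOXB falls, 2 were left without replicate 2 of doxorubicin 119.76 nM day 3 and 3 without replicate 3, and none of the 3 HOXC rises passed against vehicle arrays of the same plate rows. With ARA-C on day 3 the calls above 100 were 2 HOXD falls at 0.17 uM and 3 HOXD falls at 0.34 uM. At each of these doses 15% of all probe sets above 100 fell, so the falling share of the 15 HOX probe sets lay near that of the array. On day 5 of ARA-C 0.17 uM, 4 HOXB, 4 HOXC and all 5 HOXD probe sets above 100 fell. At 0.34 uM on day 5, 1 HOXB, 2 HOXC and 4 HOXD ones fell. That is 46.7% of the 15, where 23.7% of all probe sets above 100 fell. On day 5 of doxorubicin, all 5 HOXB and all 5 HOXD ones fell at both doses. In HOXC, 3 fell at 59.88 nM, and 2 fell and 1 rose at 119.76 nM. The falling shares of the 15 were 86.7% and 80%. Probe sets with a median above 100 fell more often than dim ones across the array, and among the 11590 of them 66.4% fell on day 5 of ARA-C 0.17 uM, 20.5% on day 3 and 49.9% on day 5 of doxorubicin 59.88 nM, and 20.2% on day 3 and 66.2% on day 5 of doxorubicin 119.76 nM. The median log2 difference of the 34 members was -0.47 on day 3 of doxorubicin 59.88 nM, against 0 over all probe sets. At 119.76 nM on day 3 the median of the 34 was -0.023, against 0.001. For the 15 above 100, the day 3 medians were -0.792 at 59.88 nM and -0.733 at 119.76 nM. All probe sets above 100 had -0.13 and -0.079, so the members above 100 were lower at both doses. On day 5 of ARA-C 0.17 uM the medians were -0.37 for the 34 and -0.28 for all probe sets. Above 100 they were -1.097 and -0.776.

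**Figure D2:**
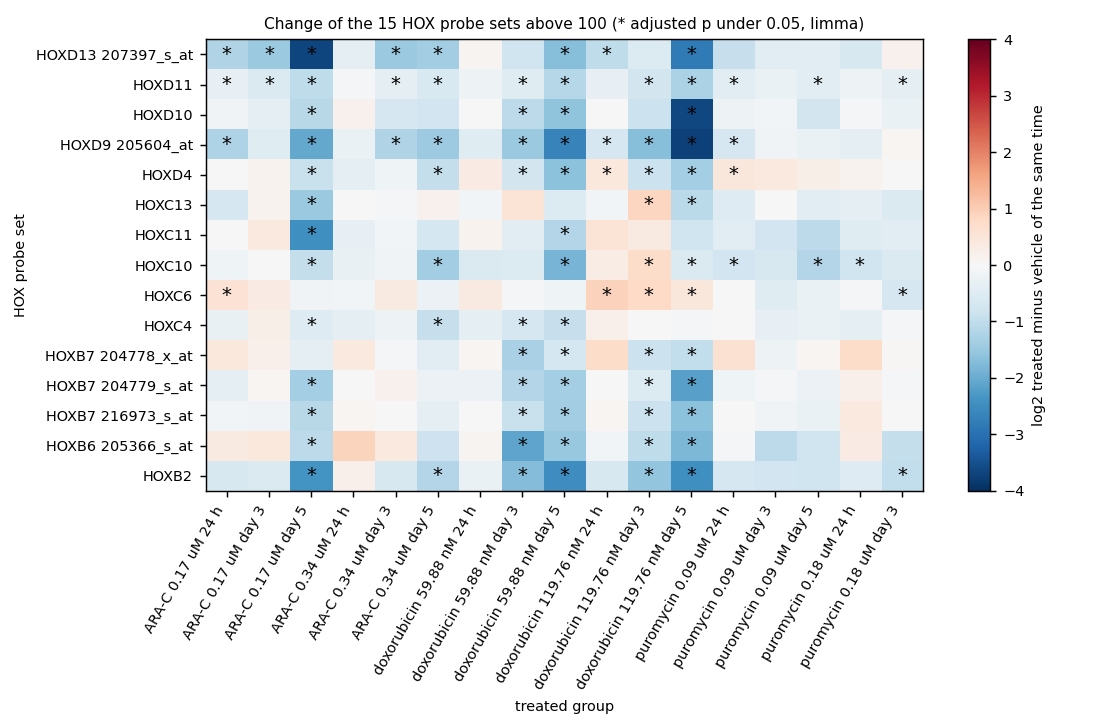
Log2 difference from vehicle cells of the same time for the 15 HOX probe sets above 100 (rows, by cluster and position) in the 17 treated groups with at least 2 arrays (columns); colour gives the difference and an asterisk marks an adjusted p under 0.05. Falls gather in the day 5 columns of ARA-C and in the day 3 and day 5 columns of doxorubicin, and the 3 HOXC rises on day 3 of doxorubicin 119.76 nM did not pass against vehicle arrays of the same plate rows.

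HOXD13, the most posterior HOXD gene, which patterns the digits, fell in 8 of the 17 comparisons. On day 5 it had signals of 42.9, 2.80 and 9.30 at ARA-C 0.17 uM, against 143 to 303 (median 211) in vehicle cells. Both values under 10 were set to the floor, all 3 treated arrays lay below every vehicle array, and the difference was the largest of the gene (log2 -3.68 ± 0.35, adjusted p = 8.27e-13). At 24 h it had 106, 145 and 129 at that dose, against 200.1 to 388 (median 289) in vehicle cells, again without overlap (log2 -1.21 ± 0.35, adjusted p = 0.0134). The 24 h call was lost without replicate 1 or 3 of ARA-C 0.17 uM 24 h (adjusted p = 0.0552 to 0.0687). On day 3 the signals were 123, 94.97 and 136 at 0.17 uM and 152, 86.5 and 124 at 0.34 uM, against 354, 240.3, 343, 340.0 and 380.2 in vehicle cells. Both doses lay below every vehicle array (-1.49 ± 0.36, adjusted p = 0.00212, and -1.48 ± 0.36, adjusted p = 0.00189, on the log2 scale). At ARA-C 0.34 uM on day 5 the signals were 77.6, 97.3 and 65.2 (log2 -1.39 ± 0.35, adjusted p = 0.0016). Those 3 lie above all 3 of the 0.17 uM arrays, but the 2 doses lie on different plate rows and were not tested against each other.

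With doxorubicin, the clear falls of HOXD13 came on day 5. It had 68.7, 63.7 and 59.2 at 59.88 nM (log2 -1.70 ± 0.35, adjusted p = 6.37e-05) and 24.9 and 34.7 at 119.76 nM (log2 -2.82 ± 0.40, adjusted p = 3.52e-08), all below the day 5 vehicle arrays. On day 3 the arrays of both doses overlapped those of vehicle cells, and neither difference passed (-0.79 ± 0.36, adjusted p = 0.124, at 59.88 nM and -0.56 ± 0.36, adjusted p = 0.308, at 119.76 nM). At 24 h of 119.76 nM the signals were 209, 99.8 and 140.2 (log2 -1.02 ± 0.35, adjusted p = 0.0393), a call lost without replicate 1, 2 or 3 of vehicle 24 h or replicate 2 or 3 of doxorubicin 119.76 nM 24 h (adjusted p = 0.0629 to 0.286). None of the 5 puromycin comparisons passed, and at 0.09 uM the gene had 145, 241 and 102 at 24 h, 178, 286 and 273 on day 3 and 157 and 153 on day 5. The single array of puromycin 0.18 uM on day 5 had 146, within the range of day 5 vehicle cells.

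HOXD11, which shapes the forearm and the kidney, fell in 12 of 17 comparisons, of which 5 were lost without some single array. On day 5 it had 663, 592 and 592 at ARA-C 0.17 uM (log2 -1.02 ± 0.12, adjusted p = 4.26e-10) and 572, 546 and 566 at doxorubicin 59.88 nM (log2 -1.15 ± 0.12, adjusted p = 2.57e-11), against 1021 to 1392 (median 1305) in vehicle cells. Both groups lay below every vehicle array. On day 3 it had 838, 872 and 613 at ARA-C 0.17 uM, 723, 911 and 802 at doxorubicin 59.88 nM and 722, 693 and 630.2 at 119.76 nM, against 1263, 1106, 1053, 1079.6 and 1169 in vehicle cells. All 9 lay below the vehicle arrays (-0.56 ± 0.12, adjusted p = 0.00078; -0.49 ± 0.12, adjusted p = 0.00275; and -0.73 ± 0.12, adjusted p = 7.5e-06, in that order). HOXD11 also fell by 0.43 on the log2 scale at 24 h of puromycin 0.09 uM (adjusted p = 0.0129), a call lost without replicate 1 of puromycin 0.09 uM 24 h (adjusted p = 0.307). Its falls at 24 h of ARA-C 0.17 uM (log2 -0.34 ± 0.12, adjusted p = 0.0484) and on day 3 of ARA-C 0.34 uM (log2 -0.37 ± 0.12, adjusted p = 0.0297) were lost without replicate 1, 2, 3 or 4 of vehicle 24 h or replicate 1, 2 or 3 of ARA-C 0.17 uM 24 h (adjusted p = 0.0684 to 0.131) and without replicate 1 or 6 of vehicle day 3 or replicate 1, 2 or 3 of ARA-C 0.34 uM day 3 (adjusted p = 0.0551 to 0.0979). That on day 5 of puromycin 0.09 uM (log2 -0.43 ± 0.14, adjusted p = 0.025) was lost without replicate 6 of vehicle day 5 or replicate 1 of puromycin 0.09 uM day 5 (adjusted p = 0.0557 to 0.546). Its fall on day 3 of puromycin 0.18 uM (log2 -0.39 ± 0.12, adjusted p = 0.0301) was lost without replicate 1 or 6 of vehicle day 3 or replicate 2 or 3 of puromycin 0.18 uM day 3 (adjusted p = 0.0571 to 0.143).

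HOXD10, active in the hindlimb and its motor neurons, had no call with ARA-C before day 5. With doxorubicin on day 5 it had 141, 92.7 and 109 at 59.88 nM and 19.2 and 39.9 at 119.76 nM, against 192 to 626 (median 358) in vehicle cells. Both doses lay below every vehicle array, by -1.61 ± 0.32 (adjusted p = 3.71e-05) and -3.64 ± 0.37 (adjusted p = 3.35e-12) on the log2 scale. The day 5 vehicle arrays themselves split by plate row, with 231, 235 and 192 in rows A to F and 481, 526 and 626 in rows G to H. Against the rows A to F arrays alone the differences were -0.96, adjusted p = 0.0175 at 59.88 nM and -2.98, adjusted p = 1.13e-09 at 119.76 nM. On day 5 of ARA-C 0.17 uM the signals were 294, 82.0 and 173 (log2 -1.10 ± 0.32, adjusted p = 0.00327), and this call was lost against vehicle arrays of the same rows (-0.44, adjusted p = 0.3), with quantile scaling, and without replicate 2 of ARA-C 0.17 uM day 5 (adjusted p = 0.165). Its fall on day 3 of doxorubicin 59.88 nM, with 169, 228 and 105 against 361, 383, 316, 249 and 353 in vehicle cells (log2 -1.04 ± 0.33, adjusted p = 0.017), was lost without replicate 3 of doxorubicin 59.88 nM day 3 (adjusted p = 0.207).

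HOXD9, a limb gene of the posterior group, fell in 10 comparisons. On day 5 of doxorubicin 119.76 nM it had 133 and 117, against 1099 to 2443 (median 1792) in vehicle cells (log2 -3.75 ± 0.24, adjusted p = 1.09e-18), and at 59.88 nM it had 234, 271 and 288 (log2 -2.67 ± 0.21, adjusted p = 2.77e-15). All 5 arrays lay below every vehicle array of any time. On day 3 it had 507, 656 and 581 at 59.88 nM and 427, 564 and 531 at 119.76 nM, against 2002, 1423, 1493, 1440.4 and 1853 in vehicle cells. The differences were -1.49 ± 0.22 (adjusted p = 3.53e-07) and -1.69 ± 0.22 (adjusted p = 1.84e-08), with no overlap. With ARA-C 0.17 uM, HOXD9 had 729, 488 and 549 at 24 h, 1232, 1282 and 1022 on day 3 and 320.0, 416 and 481 on day 5. It fell at 24 h (log2 -1.24 ± 0.21, adjusted p = 3.62e-05) and on day 5 (log2 -2.06 ± 0.21, adjusted p = 6.07e-12), while the day 3 arrays lay below the vehicle arrays without passing (log2 -0.47 ± 0.22, adjusted p = 0.103).

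At ARA-C 0.34 uM HOXD9 had 1124, 1264 and 1055 at 24 h, 785, 762 and 583 on day 3 and 705, 591 and 537 on day 5, and it fell on day 3 (log2 -1.21 ± 0.22, adjusted p = 3.08e-05) and on day 5 (log2 -1.46 ± 0.21, adjusted p = 2e-07). The day 5 vehicle arrays averaged 1157 ± 50.03 in rows A to F and 2414 ± 24.8 in rows G to H (SD, n = 3 each). Against vehicle arrays of the same rows the day 5 differences were -1.53, adjusted p = 2.26e-09 at ARA-C 0.17 uM, -1.99, adjusted p = 2.41e-12 at ARA-C 0.34 uM and -2.13, adjusted p = 3.48e-13 at doxorubicin 59.88 nM. With puromycin 0.09 uM the gene had 1284, 1599 and 1551 on day 3 and 1221 and 1585 on day 5, overlapping vehicle cells, and its 24 h call (log2 -0.67 ± 0.21, adjusted p = 0.0294) was lost without replicate 1, 2 or 3 of vehicle 24 h or replicate 1 or 3 of puromycin 0.09 uM 24 h (adjusted p = 0.0539 to 0.214).

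HOXD4, an anterior gene of the hindbrain and neck, fell in 6 comparisons and rose in 2. It rose at 24 h of doxorubicin 119.76 nM (931, 984 and 864, against 626 to 813 (median 660.3) in vehicle cells, log2 0.41 ± 0.14, adjusted p = 0.0426) and of puromycin 0.09 uM (951, 908 and 982, log2 0.45 ± 0.14, adjusted p = 0.0343). Both rises cleared all vehicle arrays but were lost with plate row as a block, the first without replicate 1, 2, 3 or 6 of vehicle 24 h or replicate 1, 2 or 3 of doxorubicin 119.76 nM 24 h (adjusted p = 0.0633 to 0.188) and the second without replicate 1, 2, 3 or 6 of vehicle 24 h or replicate 1, 2 or 3 of puromycin 0.09 uM 24 h (adjusted p = 0.0531 to 0.151). With doxorubicin on day 3 it had 475, 442 and 381 at 59.88 nM and 462, 345 and 389 at 119.76 nM, against 822, 812, 595, 631 and 727 in vehicle cells. All 6 lay below the vehicle arrays (-0.72 ± 0.15, adjusted p = 0.000174, and -0.85 ± 0.15, adjusted p = 1.31e-05). On day 5 it had 649.6, 464 and 632 at ARA-C 0.17 uM, 592, 519 and 534 at ARA-C 0.34 uM and 450.5, 240.4 and 371 at doxorubicin 59.88 nM, against 891 to 1153 (median 1124) in vehicle cells. All 9 lay below every vehicle array (-0.89 ± 0.14, adjusted p = 5.68e-07; -0.96 ± 0.14, adjusted p = 4.6e-07; and -1.64 ± 0.14, adjusted p = 9.57e-14, in that order), but with quantile scaling the ARA-C 0.17 uM difference was 0.004 (adjusted p = 0.999).

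**Figure D3:**
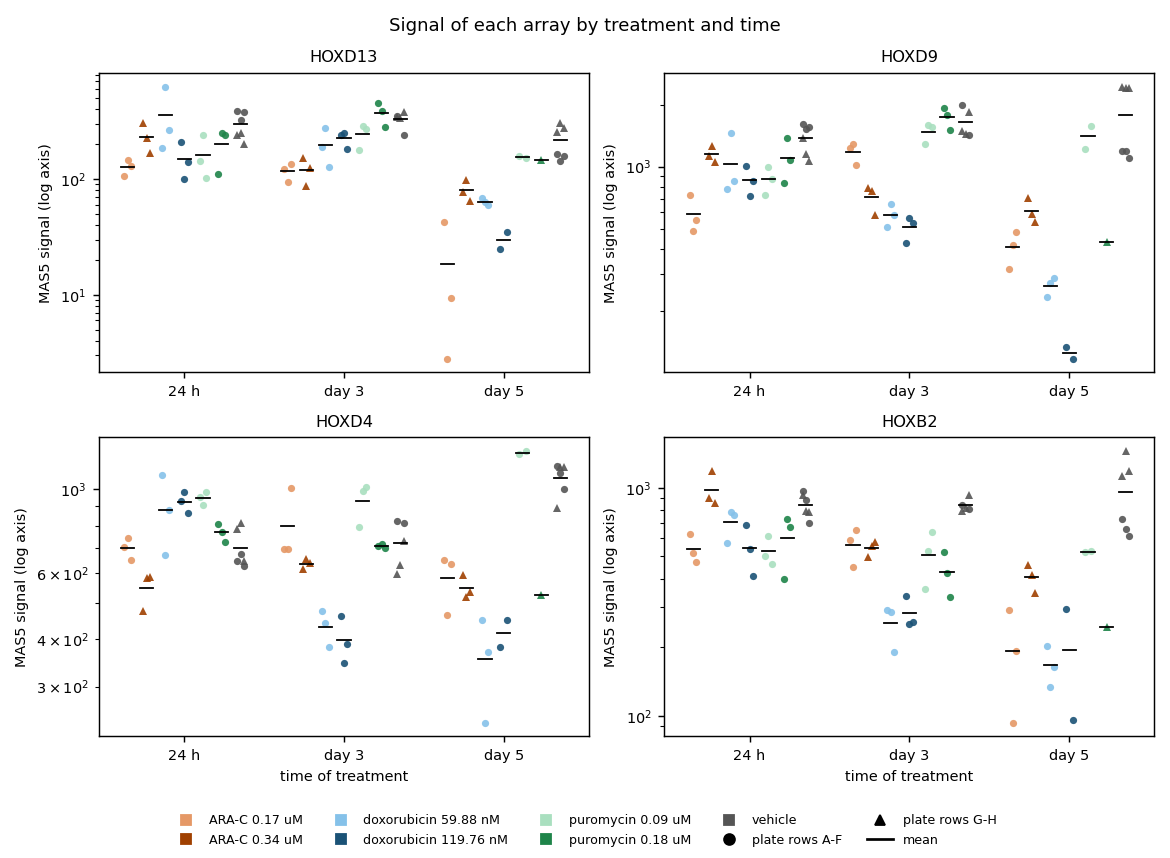
MAS5 signal per array (log axis) of HOXD13, HOXD9, HOXD4 and HOXB2 by treatment, dose and time; circles are arrays in plate rows A to F, triangles those in rows G to H, and the line is the group mean. The lowest HOXD13 values, 2.80 and 9.30, belong to ARA-C 0.17 uM on day 5, whose remaining array had 42.9. The lowest HOXD9 values, 133 and 117, are those of doxorubicin 119.76 nM on day 5.

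HOXB2, which patterns the hindbrain, fell in 7 comparisons. On day 3 of doxorubicin it had 292, 285 and 190.1 at 59.88 nM and 334, 253 and 258 at 119.76 nM, against 844, 804, 793, 819 and 929.6 in vehicle cells. All 6 lay below every vehicle array (-1.74 ± 0.27, adjusted p = 1.77e-06, and -1.58 ± 0.27, adjusted p = 9.38e-06). On day 5 it had 292, 93.1 and 193 at ARA-C 0.17 uM, 203, 134 and 163 at doxorubicin 59.88 nM and 295 and 95.4 at 119.76 nM, against 618 to 1451 (median 926) in vehicle cells. Each group lay below every vehicle array (-2.39 ± 0.26, adjusted p = 5.87e-11; -2.47 ± 0.26, adjusted p = 4.04e-11; and -2.44 ± 0.30, adjusted p = 1.18e-09, in that order). ARA-C 0.34 uM on day 5 gave 457, 413 and 344 (log2 -1.18 ± 0.26, adjusted p = 0.000411). HOXB2 was also below all vehicle arrays on day 3 of puromycin 0.18 uM, with 525, 422 and 331 (log2 -1.0 ± 0.27, adjusted p = 0.00868), a call lost with plate row as a block and without replicate 3 of puromycin 0.18 uM day 3 (adjusted p = 0.115).

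HOXB7, which drives growth factor expression in several tumours, was measured by 3 probe sets, and all 3 fell on day 3 of doxorubicin 59.88 nM. They had 324, 298 and 284 (204779_s_at), 286, 379.6 and 314 (216973_s_at) and 121, 115 and 108 (204778_x_at). The day 3 vehicle arrays had 722, 725, 541, 718 and 704, 658, 677, 504, 535 and 662 and 373, 221, 267, 309 and 252 in the same order of probe sets, and all 9 treated values lay below those of their own probe set. The log2 differences were -1.17 ± 0.18 (adjusted p = 1e-06), -0.89 ± 0.17 (adjusted p = 7.32e-05) and -1.29 ± 0.28 (adjusted p = 0.00045). On day 5, 204779_s_at had 458, 246 and 344 at ARA-C 0.17 uM, 324, 421 and 292 at doxorubicin 59.88 nM and 235 and 156 at 119.76 nM, against 666 to 1129 (median 852) in vehicle cells. None of these overlapped (-1.36 ± 0.17, adjusted p = 2.53e-09; -1.34 ± 0.17, adjusted p = 5.66e-09; and -2.18 ± 0.20, adjusted p = 1.38e-13). At ARA-C 0.34 uM on day 5 the same probe set had 797, 750.3 and 671 and did not pass (log2 -0.23 ± 0.17, adjusted p = 0.387), although against vehicle arrays of rows G to H it did (-0.49, adjusted p = 0.0326). On day 3 of 119.76 nM all 3 fell again, but the calls of 204778_x_at (log2 -0.86 ± 0.28, adjusted p = 0.0203) and 204779_s_at (log2 -0.54 ± 0.18, adjusted p = 0.0201) were lost without replicate 1 of vehicle day 3 or replicate 2 or 3 of doxorubicin 119.76 nM day 3 (adjusted p = 0.0584 to 0.0756) and without replicate 2 or 3 of doxorubicin 119.76 nM day 3 (adjusted p = 0.0958 to 0.207). On day 5 at that dose 204778_x_at differed by -0.97 ± 0.32, a call lost without replicate 3 of doxorubicin 119.76 nM day 5 (adjusted p = 0.858). It did not follow on day 5 of ARA-C 0.17 uM (log2 -0.34 ± 0.27, adjusted p = 0.324), and its fall on day 5 of doxorubicin 59.88 nM (log2 -0.69 ± 0.27, adjusted p = 0.0378) was lost against vehicle arrays of the same rows (-0.33, adjusted p = 0.481) and without replicate 4, 5 or 6 of vehicle day 5 or replicate 1 or 3 of doxorubicin 59.88 nM day 5 (adjusted p = 0.0529 to 0.345).

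HOXB6, known from limb and blood development, lay near the threshold of 100. On day 3 of doxorubicin 59.88 nM its 205366_s_at signals were 34.0, 11.8 and 27.2, against 64.7, 76.0, 110.3, 108 and 139.5 in vehicle cells (log2 -2.11 ± 0.34, adjusted p = 2.98e-06). On day 5 it had 71.2, 68.6 and 75.0 at 59.88 nM (log2 -1.53 ± 0.33, adjusted p = 0.000133) and 90.5 and 39.6 at 119.76 nM (log2 -1.78 ± 0.38, adjusted p = 7.5e-05), against 137 to 280.2 (median 216) in vehicle cells. All 5 lay below the vehicle arrays. Its fall on day 3 of 119.76 nM (log2 -1.02 ± 0.34, adjusted p = 0.0229) was lost without replicate 6 of vehicle day 3 or replicate 1 or 2 of doxorubicin 119.76 nM day 3 (adjusted p = 0.0514 to 0.253), and that on day 5 of ARA-C 0.17 uM (log2 -1.06 ± 0.33, adjusted p = 0.00602) was lost without replicate 1 of ARA-C 0.17 uM day 5 (adjusted p = 0.126) and against vehicle arrays of the same rows (-0.67, adjusted p = 0.142). The second HOXB6 probe set, 205365_at, had a vehicle median of 29.2 and did not follow the first.

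The HOXC genes did not move as 1 block. HOXC6, a thoracic gene, rose where others fell. At 24 h of doxorubicin 119.76 nM it had 3502, 4259 and 3671, against 1704 to 2426 (median 2006) in vehicle cells, with all 3 above every vehicle array (log2 0.91 ± 0.15, adjusted p = 1.7e-05). It stayed above on day 3, with 3546, 2432 and 2637 against 2418, 1899, 1135, 1435 and 1621 in vehicle cells (log2 0.78 ± 0.16, adjusted p = 0.000125), and on day 5, with 3196 and 2255 against 1701 to 2171 (median 2026) in vehicle cells (log2 0.46 ± 0.18, adjusted p = 0.0255). The day 3 rise was lost against vehicle arrays of rows A to F (0.40, adjusted p = 0.111), and the day 5 rise was lost without replicate 1 of doxorubicin 119.76 nM day 5 (adjusted p = 0.522). HOXC6 also rose at 24 h of ARA-C 0.17 uM (2843, 3359 and 2940.4, log2 0.59 ± 0.15, adjusted p = 0.00543, lost without replicate 2 of ARA-C 0.17 uM 24 h (adjusted p = 0.0598)), and fell on day 3 of puromycin 0.18 uM (1176, 1005 and 939, log2 -0.67 ± 0.16, adjusted p = 0.00197). It passed at no time of doxorubicin 59.88 nM.

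HOXC10, a hindlimb and motor neuron gene, stood on opposite sides of vehicle cells at the 2 doxorubicin doses on day 3. It had 1087, 894 and 879 at 119.76 nM and 397, 404 and 362 at 59.88 nM, against 796, 698, 415, 469 and 555 in vehicle cells. The higher dose lay above all vehicle arrays (log2 0.74 ± 0.21, adjusted p = 0.00645) and the lower dose below all of them without passing (log2 -0.56 ± 0.21, adjusted p = 0.0509). The rise was lost without replicate 1 of doxorubicin 119.76 nM day 3 (adjusted p = 0.0531) and against vehicle arrays of rows A to F (0.35, adjusted p = 0.356), while the fall passed there (-0.94, adjusted p = 0.00136). On day 5 it fell at 59.88 nM (405, 353 and 219.6, against 866 to 1450.5 (median 1177) in vehicle cells, log2 -1.85 ± 0.20, adjusted p = 8.36e-11) and at ARA-C 0.17 and 0.34 uM (-0.94 ± 0.20, adjusted p = 8.61e-05, and -1.39 ± 0.20, adjusted p = 2.53e-07). At 119.76 nM on day 5 the 2 arrays stood apart at 1095 and 523, and that call (log2 -0.58 ± 0.23, adjusted p = 0.0313) was lost without replicate 4, 5 or 6 of vehicle day 5 or replicate 3 of doxorubicin 119.76 nM day 5 (adjusted p = 0.0542 to 0.938) and turned to a rise that did not pass with quantile scaling (0.42, adjusted p = 0.12). Puromycin lowered HOXC10 in 3 of 5 comparisons. At 24 h it had 488, 485 and 451 at 0.09 uM and 478, 421 and 485 at 0.18 uM, against 658 to 979.5 (median 818) in vehicle cells, with both doses below every vehicle array (-0.76 ± 0.20, adjusted p = 0.00894, and -0.80 ± 0.20, adjusted p = 0.00692). The first of these was lost with quantile scaling and without replicate 3 of puromycin 0.09 uM 24 h (adjusted p = 0.0611). On day 5 of 0.09 uM it had 492 and 519 (log2 -1.17 ± 0.23, adjusted p = 0.000269).

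HOXC13, which controls hair and nail keratins, had 368, 281 and 321 on day 5 of ARA-C 0.17 uM, against 638 to 1202 (median 881) in vehicle cells, with no overlap (log2 -1.47 ± 0.24, adjusted p = 7.81e-07). At ARA-C 0.34 uM it had 1028, 958 and 1012 and did not pass (log2 0.17 ± 0.24, adjusted p = 0.732). On day 3 of doxorubicin 119.76 nM it had 1129.5, 1302 and 1568, against 876, 749, 619.8, 608 and 793 in vehicle cells, a rise (log2 0.87 ± 0.25, adjusted p = 0.00673) that was lost without replicate 3 of doxorubicin 119.76 nM day 3 (adjusted p = 0.0621) and against vehicle arrays of rows A to F (0.71, adjusted p = 0.111). By day 5 it had 417 and 424, below every vehicle array (log2 -1.08 ± 0.28, adjusted p = 0.000826). HOXC11, a posterior gene near the threshold of 100, fell on day 5 of ARA-C 0.17 uM to 68.3, 17.2 and 26.5, against 99.7 to 313 (median 171) in vehicle cells (log2 -2.46 ± 0.33, adjusted p = 1.24e-08). Its fall on day 5 of doxorubicin 59.88 nM (77.3, 83.8 and 68.8, log2 -1.18 ± 0.33, adjusted p = 0.00311) was lost against vehicle arrays of rows A to F (-0.58, adjusted p = 0.183). HOXC4, an anterior gene also used by lymphocytes, fell on day 5 of ARA-C 0.34 uM (265, 212 and 224, against 387 to 484 (median 439) in vehicle cells, log2 -0.91 ± 0.18, adjusted p = 7.76e-05) and of doxorubicin 59.88 nM (280.4, 262 and 168, log2 -0.92 ± 0.18, adjusted p = 3.21e-05), and at 119.76 nM its 467 and 384 overlapped vehicle cells (log2 -0.04 ± 0.21, adjusted p = 0.912). Its fall on day 5 of ARA-C 0.17 uM (301, 449.8 and 204, log2 -0.53 ± 0.18, adjusted p = 0.0121) was lost without replicate 3 of ARA-C 0.17 uM day 5 (adjusted p = 0.325) and reversed with quantile scaling (0.34, adjusted p = 0.223).

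**Figure D4:**
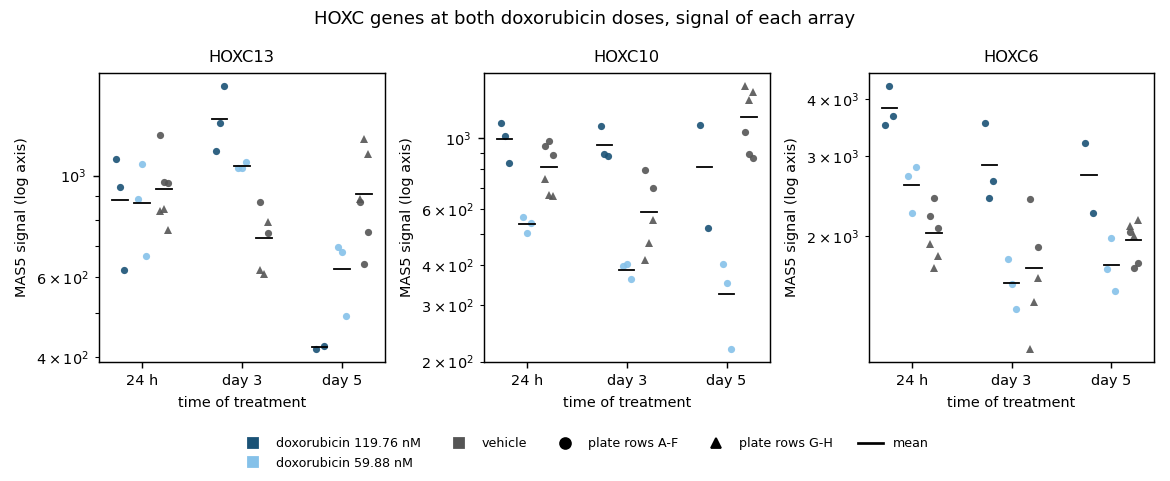
MAS5 signal per array of HOXC13, HOXC10 and HOXC6 at doxorubicin 119.76 nM, doxorubicin 59.88 nM and in vehicle cells at 24 h, day 3 and day 5; points are arrays and lines are group means. On day 3 all 3 arrays of 119.76 nM lie above the 5 vehicle arrays for each gene.

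The 19 dim probe sets, with vehicle medians under 100, were called in few comparisons, and where a group held values under the floor of 10 the size of its difference depends on that floor. HOXB13, a prostate and tail-end gene, had 7.79, 4.80 and 7.08 on day 5 of ARA-C 0.17 uM and 8.10 and 5.74 on day 5 of doxorubicin 119.76 nM, against 20.4 to 144 (median 95.04) in vehicle cells. Every one of these treated arrays was under the floor, and each call was -2.88 ± 0.62 (adjusted p = 0.000102) or -2.88 ± 0.72 (adjusted p = 0.000622). It fell in 6 comparisons in all, of which that on day 5 of ARA-C 0.34 uM was lost without replicate 1 of ARA-C 0.34 uM day 5 (adjusted p = 0.133), that at 24 h of doxorubicin 119.76 nM without replicate 2 or 3 of doxorubicin 119.76 nM 24 h (adjusted p = 0.0515 to 0.064) and that on day 3 of the same dose without replicate 6 of vehicle day 3 or replicate 1, 2 or 3 of doxorubicin 119.76 nM day 3 (adjusted p = 0.0537 to 0.0689). The second HOXD13 probe set, 207398_at, also fell in 6, with 2.06, 3.20 and 2.63 on day 5 of ARA-C 0.17 uM and 7.12, 8.03 and 3.18 at 0.34 uM, against 34.3 to 107 (median 75.5) in vehicle cells. All 6 were under the floor (-2.67 ± 0.55, adjusted p = 4.77e-05, at both doses), and 14.4, 10.9 and 8.06 at doxorubicin 59.88 nM lay below the vehicle arrays too (log2 -2.45 ± 0.55, adjusted p = 0.000228). The 2 HOXD13 probe sets thus fell together on day 5 of both ARA-C and doxorubicin.

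HOXD1, the most anterior HOXD gene, rose on day 3 of doxorubicin 59.88 nM, where its 205975_s_at signals were 95.1, 84.9 and 117, against 26.8, 24.5, 63.6, 30.9 and 17.3 in vehicle cells, with no overlap (log2 1.73 ± 0.42, adjusted p = 0.00148). Its rises on day 3 of ARA-C 0.34 uM (log2 1.38 ± 0.42, adjusted p = 0.0148) and of doxorubicin 119.76 nM (log2 1.23 ± 0.42, adjusted p = 0.026) were lost without replicate 6 of vehicle day 3 or replicate 3 of ARA-C 0.34 uM day 3 (adjusted p = 0.0538 to 0.0887) and without replicate 2 or 6 of vehicle day 3 or replicate 1, 2 or 3 of doxorubicin 119.76 nM day 3 (adjusted p = 0.0506 to 0.0874). HOXD3 had 34.3 and 34.5 for 206602_s_at on day 5 of doxorubicin 119.76 nM, against 0.95 to 6.14 (median 2.55) in vehicle cells (log2 1.78 ± 0.41, adjusted p = 0.000233). HOXC8, a thoracic and cartilage gene, rose on day 5 of ARA-C 0.17 uM (94.7, 267 and 184, against 59.3 to 107 (median 75.3) in vehicle cells, log2 1.11 ± 0.36, adjusted p = 0.00892) and of doxorubicin 119.76 nM (282 and 186, log2 1.57 ± 0.42, adjusted p = 0.0013). Those 2 rises were lost without replicate 2 of ARA-C 0.17 uM day 5 (adjusted p = 0.138) and without replicate 1 of doxorubicin 119.76 nM day 5 (adjusted p = 0.0583). HOXB5 (205601_s_at) rose on day 3 of ARA-C 0.17 uM with 31.7, 2.93 and 124 (log2 1.76 ± 0.52, adjusted p = 0.012), and the call was lost without replicate 3 of ARA-C 0.17 uM day 3 (adjusted p = 0.403), the array with raised dim signals. HOXB3, an anterior gene, fell at 24 h of puromycin 0.09 uM (4.42, 12.7 and 3.74, against 27.1 to 60.8 (median 39.99) in vehicle cells, log2 -1.83 ± 0.56, adjusted p = 0.0257), lost without replicate 2 of vehicle 24 h or replicate 1 or 3 of puromycin 0.09 uM 24 h (adjusted p = 0.054 to 0.119). Other calls among dim probe sets were 3 rises of HOXB1, 2 of HOXB6 (205365_at), 1 each of HOXD1 (205974_at) and HOXD9 (205605_at), and 1 rise and 1 fall of HOXD3 (206601_s_at). HOXA2, HOXB8, HOXB9, HOXC5, HOXD12, HOXB5 (205600_x_at) and HOXD3 (217076_s_at) were called in none of the 17.

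Whether the compounds differ was tested at the EC50 doses over days 3 and 5 in 3 pairs, ARA-C 0.17 uM, doxorubicin 59.88 nM and puromycin 0.09 uM. The arrays of all 3 groups lie in plate rows A to F, and no vehicle array enters these differences. Between ARA-C and doxorubicin, 11 HOX probe sets were higher and 2 lower with ARA-C, where 10.1% of all probe sets were higher and 15.2% lower. All 5 HOXB probe sets above 100 were higher with ARA-C, by 1.5 ± 0.27 for HOXB6 (adjusted p = 2.71e-05), 0.92 ± 0.22, 0.61 ± 0.14 and 0.51 ± 0.14 for the HOXB7 probe sets, and 0.61 ± 0.22 for HOXB2 (adjusted p = 0.0298). The HOXB2 difference was lost without replicate 3 of ARA-C 0.17 uM day 3 or replicate 1 or 3 of ARA-C 0.17 uM day 5 or replicate 3 of doxorubicin 59.88 nM day 3 or replicate 2 of doxorubicin 59.88 nM day 5 (adjusted p = 0.0562 to 0.136). HOXD9 (log2 0.81 ± 0.17, adjusted p = 0.000288) and HOXD4 (log2 0.81 ± 0.12, adjusted p = 5.44e-07) were higher with ARA-C as well, and so were HOXC10 (log2 0.72 ± 0.17, adjusted p = 0.000861) and HOXC4 (log2 0.64 ± 0.15, adjusted p = 0.000759). HOXD13 went the other way and was lower with ARA-C (log2 -1.34 ± 0.28, adjusted p = 0.000335, 95% interval -1.91 to -0.76), as was HOXC13 (log2 -0.67 ± 0.20, adjusted p = 0.00837). For HOXD11 the difference was 0.03 with a 95% interval of -0.17 to 0.22.

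Between ARA-C and puromycin, 3 HOX probe sets were higher and 8 lower with ARA-C (all probe sets, 16.7% and 23.3%). The lower share of the members, 23.5%, lay near that of the array. Among probe sets above 100, 46.7% of the HOX ones and 43.4% of all were lower. HOXD13 (log2 -2.15 ± 0.30, adjusted p = 7.51e-08), its second probe set 207398_at (log2 -1.74 ± 0.48, adjusted p = 0.00261) and HOXD9 (log2 -1.06 ± 0.18, adjusted p = 3.9e-06) were lower with ARA-C. On day 5 of ARA-C 0.17 uM, 2 of 3 signals of the first HOXD13 probe set and all 3 of the second were set to the floor, so the sizes of these differences depend on it and have no order. HOXD4 (-0.68 ± 0.12) and HOXD11 (-0.44 ± 0.10) were also lower, and HOXC6 was higher (log2 0.48 ± 0.13, adjusted p = 0.00298). HOXB2 (log2 -0.71 ± 0.23, adjusted p = 0.0103) and the HOXB7 probe sets 204779_s_at (log2 -0.48 ± 0.15, adjusted p = 0.00845) and 216973_s_at (log2 -0.43 ± 0.14, adjusted p = 0.0145) were lower, and these 3 were lost without replicate 2 of ARA-C 0.17 uM day 5 (adjusted p = 0.0798), without replicate 2 of ARA-C 0.17 uM day 5 or replicate 2 of puromycin 0.09 uM day 5 (adjusted p = 0.0524 to 0.0721) and without replicate 3 of ARA-C 0.17 uM day 3 or replicate 2 of ARA-C 0.17 uM day 5 or replicate 2 of puromycin 0.09 uM day 5 (adjusted p = 0.0514 to 0.0723). Between doxorubicin and puromycin, 1 was higher and 13 lower with doxorubicin (12.7% and 17%). The HOXD and HOXB probe sets above 100 were all lower with doxorubicin, among them HOXD9 (log2 -1.87 ± 0.18, adjusted p = 3.36e-12), HOXD4 (log2 -1.49 ± 0.12, adjusted p = 3.02e-14) and HOXB2 (log2 -1.33 ± 0.23, adjusted p = 5.4e-06). The HOXD13 difference (log2 -0.81 ± 0.30, adjusted p = 0.0349) was lost without replicate 1 or 3 of doxorubicin 59.88 nM day 3 or replicate 2 or 3 of doxorubicin 59.88 nM day 5 or replicate 2 or 3 of puromycin 0.09 uM day 3 or replicate 1 or 2 of puromycin 0.09 uM day 5 (adjusted p = 0.0522 to 0.115). The count of 14 fell to 9 without puromycin 0.09 uM day 5 replicate 1 or replicate 2. HOXC11 passed in none of the 3 pairs, with 95% intervals of -0.77 to 0.33, -0.72 to 0.44 and -0.50 to 0.66 for ARA-C minus doxorubicin, ARA-C minus puromycin and doxorubicin minus puromycin.

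**Figure D5:**
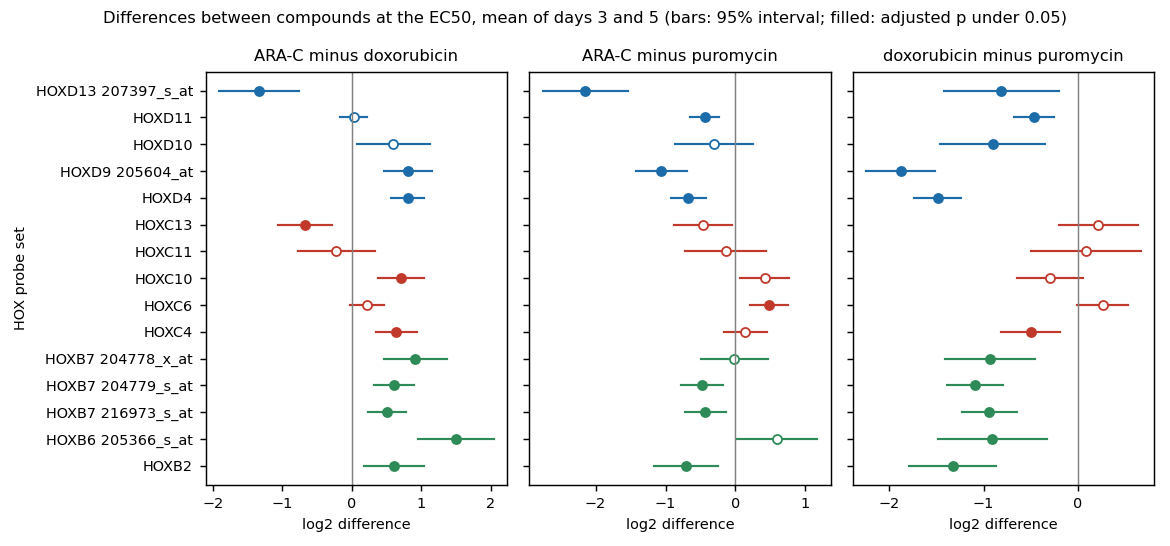
Log2 difference between compounds at the EC50 doses over days 3 and 5 for the 15 HOX probe sets above 100, 1 panel per pair, with 95% intervals; a filled point has an adjusted p under 0.05. HOXD13 lies left of 0 in all 3 panels, and the HOXB probe sets lie right of 0 for ARA-C minus doxorubicin and left of 0 for doxorubicin minus puromycin.

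Dose was compared within doxorubicin, 119.76 against 59.88 nM, over the 3 times. At the higher dose 4 HOX probe sets were higher and 3 lower (all probe sets, 5.49% and 15.4%). Of the 15 above 100, 20% were higher and 20% lower, where 6.07% and 27.4% of all probe sets above 100 were, so the lower share did not exceed that of the array. HOXC10 (log2 1.14 ± 0.14, adjusted p = 4.71e-08), HOXC4 (log2 0.71 ± 0.12, adjusted p = 3.8e-05) and HOXC6 (log2 0.68 ± 0.11, adjusted p = 4.71e-06), all of the HOXC cluster, were higher at 119.76 nM, along with the dim HOXB6 probe set 205365_at (log2 1.16 ± 0.33, adjusted p = 0.00862). HOXD9 (log2 -0.50 ± 0.15, adjusted p = 0.01), HOXD10 (log2 -0.62 ± 0.22, adjusted p = 0.0364) and HOXD13 (log2 -0.67 ± 0.24, adjusted p = 0.0393), all of the HOXD cluster, were lower. The HOXD10 and HOXD13 differences were lost without replicate 2 of doxorubicin 59.88 nM 24 h or replicate 1 or 2 of doxorubicin 59.88 nM day 3 or replicate 1 of doxorubicin 59.88 nM day 5 or replicate 2 or 3 of doxorubicin 119.76 nM 24 h or replicate 1 of doxorubicin 119.76 nM day 3 or replicate 1 of doxorubicin 119.76 nM day 5 (adjusted p = 0.0554 to 0.215) and without replicate 2 of doxorubicin 59.88 nM 24 h or replicate 1 or 2 of doxorubicin 59.88 nM day 3 or replicate 1 or 2 of doxorubicin 59.88 nM day 5 or replicate 2 or 3 of doxorubicin 119.76 nM 24 h or replicate 3 of doxorubicin 119.76 nM day 3 or replicate 1 of doxorubicin 119.76 nM day 5 (adjusted p = 0.051 to 0.141). For HOXB2 the dose difference was -0.07 with a 95% interval of -0.44 to 0.30, and for HOXB7 (204779_s_at) 0.01 with -0.23 to 0.25. Between puromycin 0.18 and 0.09 uM at 24 h and day 3, limma called no HOX probe set (2 had an unadjusted p under 0.05), and 0.180% of all probe sets were higher and 0.122% lower.

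Several members also changed in vehicle cells over the culture. On day 3 against 24 h, limma called none (4 had an unadjusted p under 0.05, and 1.5% of all probe sets were higher and 1.88% lower). On day 5 against 24 h, 6 HOX probe sets were higher and none lower (13.2% and 10.8%). HOXB6 had 137 to 280.2 (median 216) on day 5 and 57.4 to 91.3 (median 77.8) at 24 h, with no overlap (log2 1.49 ± 0.27, adjusted p = 1.8e-05). HOXD4 had 891 to 1153 (median 1124) on day 5 and 626 to 813 (median 660.3) at 24 h, again with no overlap (log2 0.62 ± 0.12, adjusted p = 3.83e-05). The HOXB7 probe sets rose by 0.69, 0.42 and 0.51 (204778_x_at, 204779_s_at and 216973_s_at) and HOXC10 by 0.50 on the log2 scale, and of these 216973_s_at kept its call (log2 0.51 ± 0.14, adjusted p = 0.00326) whichever array was left out. The others were lost without replicate 5 or 6 of vehicle day 5 (adjusted p = 0.0504 to 0.0672), without replicate 5 or 6 of vehicle 24 h or replicate 4 or 6 of vehicle day 5 (adjusted p = 0.0609 to 0.0893) and without replicate 5 or 6 of vehicle 24 h or replicate 4, 5 or 6 of vehicle day 5 (adjusted p = 0.0545 to 0.0718). The day 5 vehicle arrays differed by plate row, with means in rows A to F and G to H of 669.9 ± 55.9 and 1255 ± 173 for HOXB2, 116 ± 21.5 and 267 ± 57.5 for HOXC11 and 155 ± 11.5 and 279 ± 22.8 for HOXD13 (SD, n = 3 each). The ACTB ratio of those arrays was 3.77 to 4.23 in rows A to F and 1.44 to 1.58 in rows G to H. Its part in the day 5 differences was not tested.

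Genes that work with the HOX genes were counted on lists chosen with earlier results of these data known. On day 5 their counts stand beside 38.0% of all probe sets falling at ARA-C 0.17 uM and 29.1% at doxorubicin 59.88 nM. Of those above 100, 66.4% and 49.9% fell. Most measured members lay above 100 for TALE cofactors (4 of 5), Polycomb (18 of 20) and MLL and trithorax (9 of 13). The same held for CTCF and cohesin (7 of 7) and the non-HOX neighbours of the clusters (15 of 19). Of the retinoic acid genes, 4 of 15 did. Of the TALE cofactors, 5 of 9 were measured, and 4 fell on day 5 of ARA-C 0.17 uM and 3 on day 5 of doxorubicin 59.88 nM, with none rising. MEIS1, a partner of posterior HOX proteins, fell, with log2 differences of -1.31 ± 0.14, adjusted p = 4.62e-11 and -1.45 ± 0.14, adjusted p = 3.89e-12 in those groups, and PBX2 had -1.5 ± 0.35, adjusted p = 0.000248 and -1.37 ± 0.35, adjusted p = 0.000969. Of the Polycomb genes, 20 of 27 were measured, and 1 rose and 14 fell with ARA-C and 2 rose and 12 fell with doxorubicin. EZH2, which writes the silencing mark, was among the risers (0.29 ± 0.12, adjusted p = 0.0377 with ARA-C and 0.41 ± 0.12, adjusted p = 0.00418 with doxorubicin), and RBBP4, a histone-binding subunit, among the fallers (-0.96 ± 0.13, adjusted p = 2.07e-08 and -0.37 ± 0.13, adjusted p = 0.0193). Of the MLL and trithorax genes, 13 of 18 were measured, with 7 falling and none rising at ARA-C 0.17 uM and 6 falling and 1 rising at doxorubicin 59.88 nM. MEN1, which joins MLL to chromatin, fell, with log2 differences of -1.29 ± 0.13, adjusted p = 3.92e-12 and -0.48 ± 0.13, adjusted p = 0.00198.

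The CTCF and cohesin genes, which fold the clusters into loops, were all 7 measured, and all 7 fell on day 5 of both ARA-C 0.17 uM and doxorubicin 59.88 nM. RAD21, a cohesin subunit, fell, with log2 differences of -1.71 ± 0.13, adjusted p = 2.44e-15 and -0.84 ± 0.13, adjusted p = 9.24e-07. On day 3 with doxorubicin, 4 of the 7 fell at 59.88 nM and 4 at 119.76 nM, where 20.5% and 20.2% of all probe sets above 100 fell. Of the retinoic acid genes, whose signal opens the clusters from their anterior end, 15 of 17 were measured. On day 5, 2 rose and 5 fell at ARA-C 0.17 uM, and 3 rose and 2 fell at doxorubicin 59.88 nM. ALDH1A2, which makes retinoic acid, averaged 61.1 at doxorubicin 59.88 nM and 10.9 in vehicle cells on day 5 (2.14 ± 0.37, adjusted p = 4.35e-06). Its vehicle mean lay near the floor of 10, so the size of this rise depends on the floor. RARB, also near the floor in vehicle cells, rose too (1.55 ± 0.45). The brighter NRIP1 (-0.77 ± 0.19) and DHRS3 (-1.61 ± 0.47) fell there. At ARA-C 0.17 uM on day 5, NRIP1 (-1.49 ± 0.19), RXRA (-0.61 ± 0.22), RXRB (-1.05 ± 0.23) and RARA (-0.58 ± 0.22) fell. Of the non-HOX neighbours of the clusters, 19 of 24 were measured, with 1 rising and 11 falling at ARA-C 0.17 uM and 10 falling at doxorubicin 59.88 nM on day 5. MTX2, next to the HOXD cluster, fell, with log2 differences of -1.52 ± 0.18, adjusted p = 3.33e-10 and -1.49 ± 0.18, adjusted p = 1e-09.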

How the data were processed

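The authors deposited 1 table of MAS5 signals, a linear intensity for each probe set on each of 68 high-throughput Affymetrix arrays of A673 cells, already scaled so that array means lay between 1094 and 1103. The MAS5 version was not given in the sources used here. Of 22930 probe sets listed, 715 control ones were removed, and probe sets were named through GEO's platform annotation (19230 with 1 symbol, 125 with several, 2860 with none). Signals were floored at 10, capped at 16000 and log2 transformed. Group means over 67 arrays were fitted with limma 3.58.1 in R 4.3.3 (empirical Bayes with a trend, 46 residual and 5.04 prior degrees of freedom), two-sided, with Benjamini-Hochberg adjustment over 22215 probe sets and a threshold of 0.05. Errors of log2 differences are standard errors. Plate rows come from the study's list of array positions. Named members were the 15 probe sets with a vehicle median above 100 and every dim one called at least once (values for the 6 with the largest changes), and values for HOXC8 were added after its values were seen. Members, lists and tests were chosen with earlier results of these data known. Precision is limited by the number of arrays per group. The fit was checked on simulated data. Alternatives were quantile scaling, a floor of 32, leaving out dim probe sets (40th percentile), a block for plate rows, only those vehicle arrays that share a group's rows, a replicate block, keeping the array with blood transcripts, and leaving out each array.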

Additional observations from a re-analysis of the deposited data

Results flagged for a closer look

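Each of the 15 probe sets above 100 was looked at in the 3 vehicle groups, and in 2 of these 45 cases 1 array stood apart from the rest, where chance flags about 1 in 20. Among the day 3 vehicle arrays, HOXB7 (204779_s_at) had a gap of 0.897 of the whole range, with 722, 725, 541, 718 and 704, and HOXD13 (207397_s_at) a gap of 0.756, with 354, 240.3, 343, 340.0 and 380.2.

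The difference from vehicle cells on day 5 was set against that at 24 h for each compound at its EC50 dose, as an interaction term in the limma fit. Among all probe sets, 27.0% had a lower difference on day 5 than at 24 h with ARA-C 0.17 uM and 18.9% with doxorubicin 59.88 nM, and among those above 100, as all HOX probe sets that were lower are, 48.0% and 33.1%. Against vehicle arrays of the same plate rows 5 HOX probe sets were lower with ARA-C and 5 with doxorubicin, and quantile scaling left 4 calls with ARA-C. The shares above belong to the reported fit, and none is given for these alternatives. With ARA-C 0.17 uM the log2 difference was lower on day 5 for 11 HOX probe sets: HOXD13 by -2.47, HOXD11 by -0.68, HOXD9 by -0.82 and HOXD4 by -0.90 in HOXD, HOXC11 by -2.47, HOXC10 by -0.76 and HOXC6 by -0.73 in HOXC, and HOXB7 by -1.01 (204779_s_at) and -1.0 (216973_s_at), HOXB6 by -1.42 and HOXB2 by -1.74 in HOXB. It was higher for the dim HOXA2, by 1.98 (adjusted p = 0.0385). With doxorubicin 59.88 nM it was lower for 11: HOXD13 by -1.82, HOXD11 by -0.93, HOXD10 by -1.62, HOXD9 by -2.20 and HOXD4 by -1.95, HOXC11 by -1.31 and HOXC10 by -1.27, and HOXB7 by -1.10 (204779_s_at) and -1.38 (216973_s_at), HOXB6 by -1.63 and HOXB2 by -2.21. Without some single array the ARA-C calls of HOXB6 (adjusted p = 0.0943), HOXD9 (0.053 to 0.13), HOXC10 (0.0505 to 0.0914) and HOXA2 (0.0516 to 0.332) and the doxorubicin calls of HOXC11 (0.0505 to 0.125) and HOXD13 (0.0558) were lost. With puromycin 0.09 uM limma called none, and none of the 34 had an unadjusted p under 0.05. The ACTB 3′ to 5′ ratio was higher on day 5 than at 24 h in the ARA-C 0.17 uM arrays (7.35 to 33.7, against 2.61 to 3.98) and in the doxorubicin 59.88 nM arrays (4.38 to 7.63, against 1.11 to 3.85), and its part in these differences was not tested.

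On the array that was left out for its blood transcripts, puromycin 0.09 uM day 5 replicate 3, HOXB6 (205366_s_at) had a signal of 318.9, above the 137 to 280.2 (median 216) of day 5 vehicle cells.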

How the results depend on the processing

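Of 193 member differences called, 123 kept their call whichever array was left out. The numbers kept under each alternative were 150 with quantile scaling, 182 with a floor of 32, 163 of 163 without dim probe sets, 174 with plate row as a block, 155 with vehicle arrays of the same rows, 165 with a replicate block and 118 with the blood-transcript array kept. Quantile scaling reversed 4, which then did not pass: HOXD4 (0.004) and HOXC4 (0.34) on day 5 of ARA-C 0.17 uM, HOXC10 on day 5 of doxorubicin 119.76 nM (0.42), and the HOXD11 difference between day 5 and 24 h of ARA-C 0.17 uM (0.0337).

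Counts of the 34 HOX probe sets called that moved by over 1.5 times were as follows, each beside its value in the report. For ARA-C 0.17 uM at 24 h (5) the count was 1 with the blood-transcript array kept. On day 3 (5) it was 9 with a floor of 32, 3 without dim probe sets and 3 with vehicle arrays of the same rows, and 2 with the blood-transcript array. On day 5 (18) it was 11 with quantile scaling. For ARA-C 0.34 uM at 24 h (0) it was 1 with quantile scaling and 3 with a floor of 32, on day 3 (5) 8 with plate row as a block and 3 with the blood-transcript array, and on day 5 (9) 17 with vehicle arrays of the same rows. For doxorubicin 59.88 nM at 24 h (0) it was 2 with vehicle arrays of the same rows. For doxorubicin 119.76 nM at 24 h (7) it was 4 with plate row as a block and 2 with the blood-transcript array, and on day 3 (13) 8 with vehicle arrays of the same rows and 5 with the blood-transcript array. For puromycin 0.09 uM at 24 h (5) it was 3 with quantile scaling, 2 with plate row as a block and 0 with the blood-transcript array (10 had an unadjusted p under 0.05 in the reported fit). On day 3 (0) it was 2 without dim probe sets, 1 with plate row as a block and 2 with vehicle arrays of the same rows. On day 5 (2) it was 1 with quantile scaling, 4 with a floor of 32, 4 without dim probe sets, 1 with plate row as a block, 1 with vehicle arrays of the same rows and 14 with the blood-transcript array. For puromycin 0.18 uM at 24 h (1) it was 2 with quantile scaling, plate row as a block or vehicle arrays of the same rows and 0 with the blood-transcript array (6 unadjusted in the reported fit), and on day 3 (3) 5 without dim probe sets and 1 with the blood-transcript array. Keeping that array also gave 8 for ARA-C against doxorubicin (13), 6 for ARA-C against puromycin (11), 9 for doxorubicin against puromycin (14), 3 for the doxorubicin doses (7) and 2 for day 5 against 24 h in vehicle cells (6). For the difference between day 5 and 24 h, ARA-C (12) had 4 with quantile scaling, 5 with vehicle arrays of the same rows and 6 with the blood-transcript array, doxorubicin (11) 5 with vehicle arrays of the same rows, and puromycin (0) 1 with those arrays and 4 with the blood-transcript array.

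The replicate numbers share nothing in the labels, and the deviations of same-numbered arrays correlated at -0.098 to 0.112 over 43 pairs, so they do not pair the arrays. With a replicate block the counts were 3 on day 3 of ARA-C 0.17 uM, 1 at 24 h of ARA-C 0.34 uM, 4 at 24 h and 8 on day 3 of doxorubicin 119.76 nM, 2 at 24 h, 1 on day 3 and 1 on day 5 of puromycin 0.09 uM, and 2 at 24 h and 1 on day 3 of puromycin 0.18 uM, and other counts moved by less.

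Leaving out 1 array at a time gave 2 to 6, 2 to 7 and 16 to 18 calls at 24 h, day 3 and day 5 of ARA-C 0.17 uM, 0 to 2, 3 to 6 and 9 to 13 of ARA-C 0.34 uM, 0 to 3, 10 to 12 and 14 to 17 of doxorubicin 59.88 nM, 2 to 7, 8 to 14 and 16 to 21 of doxorubicin 119.76 nM, 1 to 6, 0 to 2 and 1 to 4 of puromycin 0.09 uM, and 1 to 2 and 1 to 4 at 24 h and day 3 of puromycin 0.18 uM. The ranges were 12 to 16, 9 to 16 and 9 to 14 for ARA-C against doxorubicin, ARA-C against puromycin and doxorubicin against puromycin, 5 to 10 and 0 to 0 for the doxorubicin and puromycin doses, 0 to 2 and 3 to 7 for day 3 and day 5 against 24 h in vehicle cells, and 9 to 14, 10 to 13 and 0 to 0 for the day 5 against 24 h differences of ARA-C, doxorubicin and puromycin. Arrays that moved a count by over 1.5 times were each ARA-C 0.17 uM 24 h array (replicates 1, 2 and 3, counts 3, 2 and 3), vehicle day 3 replicate 6 (3 for day 3 of either ARA-C dose), replicate 3 of ARA-C 0.17 uM day 3 (2) and of ARA-C 0.34 uM day 3 (3), ARA-C 0.34 uM 24 h replicates 1 and 3 (2 each), doxorubicin 59.88 nM 24 h replicate 2 (3), vehicle 24 h replicate 3 (4) and doxorubicin 119.76 nM 24 h replicates 2 and 3 (2 each), doxorubicin 119.76 nM day 3 replicate 3 (8), and vehicle day 3 replicate 1 (2) and vehicle day 5 replicate 6 (3) for the vehicle times. For puromycin they were vehicle 24 h replicates 1, 2 and 3 (3, 2 and 3) and puromycin 0.09 uM 24 h replicates 1 and 3 (1 each), vehicle day 3 replicate 4 (2) and puromycin 0.09 uM day 3 replicate 2 (1), vehicle day 5 replicates 1, 2 and 3 (4 each) and 6 (1) and puromycin 0.09 uM day 5 replicate 1 (1), puromycin 0.18 uM 24 h replicate 1 (2) and day 3 replicate 3 (1), and puromycin 0.09 uM day 5 replicates 1 and 2 for doxorubicin against puromycin (9 each). The number of probe sets above 100 was 14 to 15 without any 1 vehicle array, 20 at a threshold of 50, 13 at 200 and 15 by the mean.

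Quantile scaling moved the median of all probe sets by -0.27 and 0.28 on the log2 scale on days 3 and 5 of ARA-C 0.17 uM, -0.21 at 24 h of ARA-C 0.34 uM, 0.15 and 0.25 on day 5 of doxorubicin 59.88 and 119.76 nM, 0.10 and 0.14 at 24 h and day 5 of puromycin 0.09 uM, and -0.17 for ARA-C against puromycin. The share of rises among all calls, 20.1% as reported on day 5 of ARA-C 0.17 uM, became 48.4%, and it went to 51.9% at 24 h (37.9% as reported) and 49% on day 3 (64.7%). It became 51.7% at 24 h of ARA-C 0.34 uM (74.3%), 49.5% on day 5 of doxorubicin 59.88 nM (28.3%) and 49.8% of 119.76 nM (28.5%), 53.4%, 52.2% and 54.6% at 24 h, day 3 and day 5 of puromycin 0.09 uM (20.3%, 22.1% and 31.4%), 54.6% and 49.9% at 24 h and day 3 of puromycin 0.18 uM (44.2% and 38%), and 44% and 34% for the doxorubicin and puromycin doses (26.3% and 59.7%). Signals near 10 have no order, and 1 to 3 arrays per treated group limit what can be seen.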
